A study of Mus musculus with 27 samples.

Results

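The genes described here encode the subunits of the fast, ligand-gated receptors for GABA, glycine, acetylcholine and serotonin. They were found by their symbols in the deposited table: every gene whose name begins with Gabra, Gabrb, Gabrg, Gabrd, Gabre, Gabrp, Gabrq, Gabrr, Glra, Glrb, Chrna, Chrnb, Chrnd, Chrne, Chrng or Htr3 and that has a protein-coding transcript. The rule gave 42 of 30735 genes, of which 19 are GABA receptor genes, 5 glycine receptor genes, 11 neuronal nicotinic genes, 5 muscle nicotinic genes and 2 serotonin receptor genes. RNA was measured in 27 libraries of C57Bl/6 mice. Of these, 18 were from retina, where cells carrying the reporter AP, alkaline phosphatase placed in the Brn3a or the Brn3b locus, were pulled out on magnetic beads with an antibody to AP. Brn3a and Brn3b are related transcription factors active in retinal ganglion cells, the neurons that send the output of the eye to the brain. The AP-positive groups had 2 libraries each and were Brn3a AP/WT (HET) and Brn3a AP/KO (KO) at P3, Brn3b AP/WT and Brn3b AP/KO at P3, and Brn3b AP/WT and Brn3b AP/KO at E15. All retinal libraries, the heterozygous ones included, came from mice with 1 AP allele. Cells that stayed off the beads gave 6 unbound libraries: 1 per genotype at P3 (4 in all), and at E15 1 Brn3b HET and 1 Brn3b KO library. The 9 brain libraries were of wild-type P3 pups, with 3 of superior colliculus (SC), 3 of lateral geniculate nucleus (LGN), 1 of the pretectal area and 2 of the brain that remained after dissection.

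These receptors are rings of 5 subunits around an ion channel, and the mix of subunits sets affinity, speed and place in the membrane. GABA-A and glycine receptors pass chloride; most GABA-A receptors join alpha, beta and gamma subunits, and glycine receptors join alpha subunits with the beta subunit Glrb. Nicotinic and 5-HT3 receptors pass cations. In the retina before the eyes open, acetylcholine released by starburst amacrine cells acts on nicotinic receptors of ganglion cells and carries the waves of activity that help to order their projections, while GABA and glycine receptors receive amacrine input.

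The retinal libraries held 28905675 to 37394655 estimated counts and the brain libraries 10122962 to 13769685. Levels are given as CPM (counts scaled to library size and between libraries by TMM, with retina and brain scaled apart) and, where genes are compared with each other, as TPM (the share of transcripts after correction for transcript length). Differences are log2 fold changes ± standard error from edgeR's quasi-likelihood test. A gene passed when its p, adjusted by Benjamini-Hochberg over all genes tested, was under 0.05. The labels do not say that the libraries of a group came from separate animals, so p-values measure only the spread between libraries. The targeted genes followed the titles: Pou4f1, which encodes Brn3a, was at 11.0 and 16.7 CPM in Brn3a KO and at 444 and 486 CPM in Brn3a HET, and Pou4f2, which encodes Brn3b, was at 18.6 and 21.0 CPM in Brn3b KO at P3 and at 190.4 and 289 CPM in Brn3b HET. At E15 Pou4f2 was at 65.7 and 63.1 CPM in Brn3b KO and at 325 and 224 CPM in Brn3b HET. Libraries were placed by their titles, and other labels differ from these: the source names of all 12 Brn3b retinal libraries name Brn3a, and those of the 6 E15 libraries name P3. The separate age entries match the titles in all 18 retinal libraries, and the genotype entries do in all but 1, Brn3a KO replicate 2, whose entry names Brn3b. The captured cells were mixed. The summed CPM of 8 ganglion cell markers, Pou4f1 and Pou4f2 among them, ranged from 4975 to 5221 in Brn3a HET, 3591 to 4729 in Brn3a KO, 2065 to 3021 in Brn3b HET and 548 to 771 in Brn3b KO at P3, against 202 to 535 in the unbound P3 libraries. At E15 it was 1843 and 3337 in Brn3b HET, 884 and 1229 in Brn3b KO and 791 and 915 in the unbound cells. Microglia and macrophage markers (8 genes) summed to 749 to 2992 CPM in the AP-positive P3 libraries, 511 to 725 in those of E15 and at most 21.7 in any unbound library. In such bulk samples fewer cells of a type and less RNA per cell cannot be told apart.

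Many members lie beside each other in the genome (GRCm38 coordinates of the deposited table). Gabrg1, Gabra2, Gabra4 and Gabrb1 sit together on chromosome 5, and Gabrr2 and Gabrr1 on chromosome 4. The 2 nicotinic clusters return below. Chrnb3, on the plus strand, and Chrna6, on the minus strand, face each other within 45.2 kb at chr8:27368711-27413944. Chrna5, Chrna3 and Chrnb4 lie within 67.7 kb at chr9:54980880-55048544. The 250 bases before the start of 4 members are shown, from RefSeq on GRCm38.p6, because Chrna3 and Chrnb4 are neighbours whose levels parted with age and between populations, and because Gabrg1 and Gabrg3 are gamma subunits with large changes in the retina; these 4 were chosen after their values were seen. Capitals mark matches to ATTAAT, an AT-rich core found within published Brn3 sites, or to CAGCTG, an E-box. Each motif reads the same on both strands, and the windows are chr5:70842618-70842867 for Gabrg1, chr7:57387216-57387465 for Gabrg3, chr9:55026563-55026812 for Chrna3 and chr9:55048545-55048794 for Chrnb4, all on the minus strand.
Gabrg1: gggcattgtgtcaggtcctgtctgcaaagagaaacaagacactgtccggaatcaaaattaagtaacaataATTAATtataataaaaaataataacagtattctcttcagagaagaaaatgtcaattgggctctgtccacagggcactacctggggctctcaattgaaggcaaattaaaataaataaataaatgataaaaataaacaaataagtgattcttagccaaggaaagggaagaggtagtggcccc
Gabrg3: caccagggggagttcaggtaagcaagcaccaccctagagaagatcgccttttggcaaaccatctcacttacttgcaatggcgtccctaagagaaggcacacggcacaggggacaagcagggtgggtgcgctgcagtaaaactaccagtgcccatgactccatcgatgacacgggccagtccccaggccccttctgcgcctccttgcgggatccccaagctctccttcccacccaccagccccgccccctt
Chrna3: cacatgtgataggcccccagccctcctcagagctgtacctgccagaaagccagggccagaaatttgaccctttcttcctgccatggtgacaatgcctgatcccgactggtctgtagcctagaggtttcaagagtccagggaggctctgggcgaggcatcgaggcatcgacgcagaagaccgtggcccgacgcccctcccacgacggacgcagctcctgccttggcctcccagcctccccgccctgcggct
Chrnb4: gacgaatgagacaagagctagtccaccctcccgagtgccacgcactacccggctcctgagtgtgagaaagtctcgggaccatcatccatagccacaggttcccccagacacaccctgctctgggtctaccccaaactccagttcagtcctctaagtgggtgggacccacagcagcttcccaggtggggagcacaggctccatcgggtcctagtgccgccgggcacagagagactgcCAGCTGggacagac
ATTAAT was found once before Gabrg1, CAGCTG once before Chrnb4, and neither before Gabrg3 or Chrna3. In all, 32 of the 42 members matched the RefSeq promoter table, with 37 windows. ATTAAT stood in 3 of these windows (Gabrg1, Gabrr2 and Htr3b) and in 4.39% of all 32851 windows. CAGCTG stood in 7 (Chrna1, Chrna9, Chrnb4, Chrne, Chrng, Gabrp and Glra3) and in 4271 of all windows. A match is a run of letters and not a shown binding site.

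Nicotinic and GABA-A genes were among the most abundant members in the AP-positive libraries. In Brn3a HET at P3 the α6 nicotinic gene Chrna6 was the most abundant member, at a mean of 248.8 TPM (244 and 253), and Chrnb3 was at 104 and the GABA alpha gene Gabra2 at 103 TPM. At E15 Chrna3 led in both Brn3b groups, with 149 TPM in HET and 269 in KO, followed by Chrna4 with 78.2 and 132 TPM. In LGN the glycine receptor gene Glra2 led, at 155 TPM. A mean of 1 TPM or more was reached by 24 to 27 members in the AP-positive groups at P3, by 17 and 19 in those of E15 and by 23 to 27 in the brain areas. Muscle nicotinic genes were low. Chrnd had no count in any of the 27 libraries, Chrne and Chrng had at most 3.04 and 5.40 estimated counts in a library, and Chrna1 reached at most 3.03 CPM. Chrnb1, the muscle-type beta gene, had counts in all 27 libraries, with means of 3.13 TPM in the unbound E15 cells, 2.64 TPM in the unbound P3 cells and 0.351 to 1.53 TPM in the other groups. Skeletal muscle markers summed to 5.43 to 11.0 CPM throughout. Chrna9, Chrna10, Gabra6, Gabrp and Htr3b also had fewer than 10 estimated counts in every library.

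**Figure D1:**
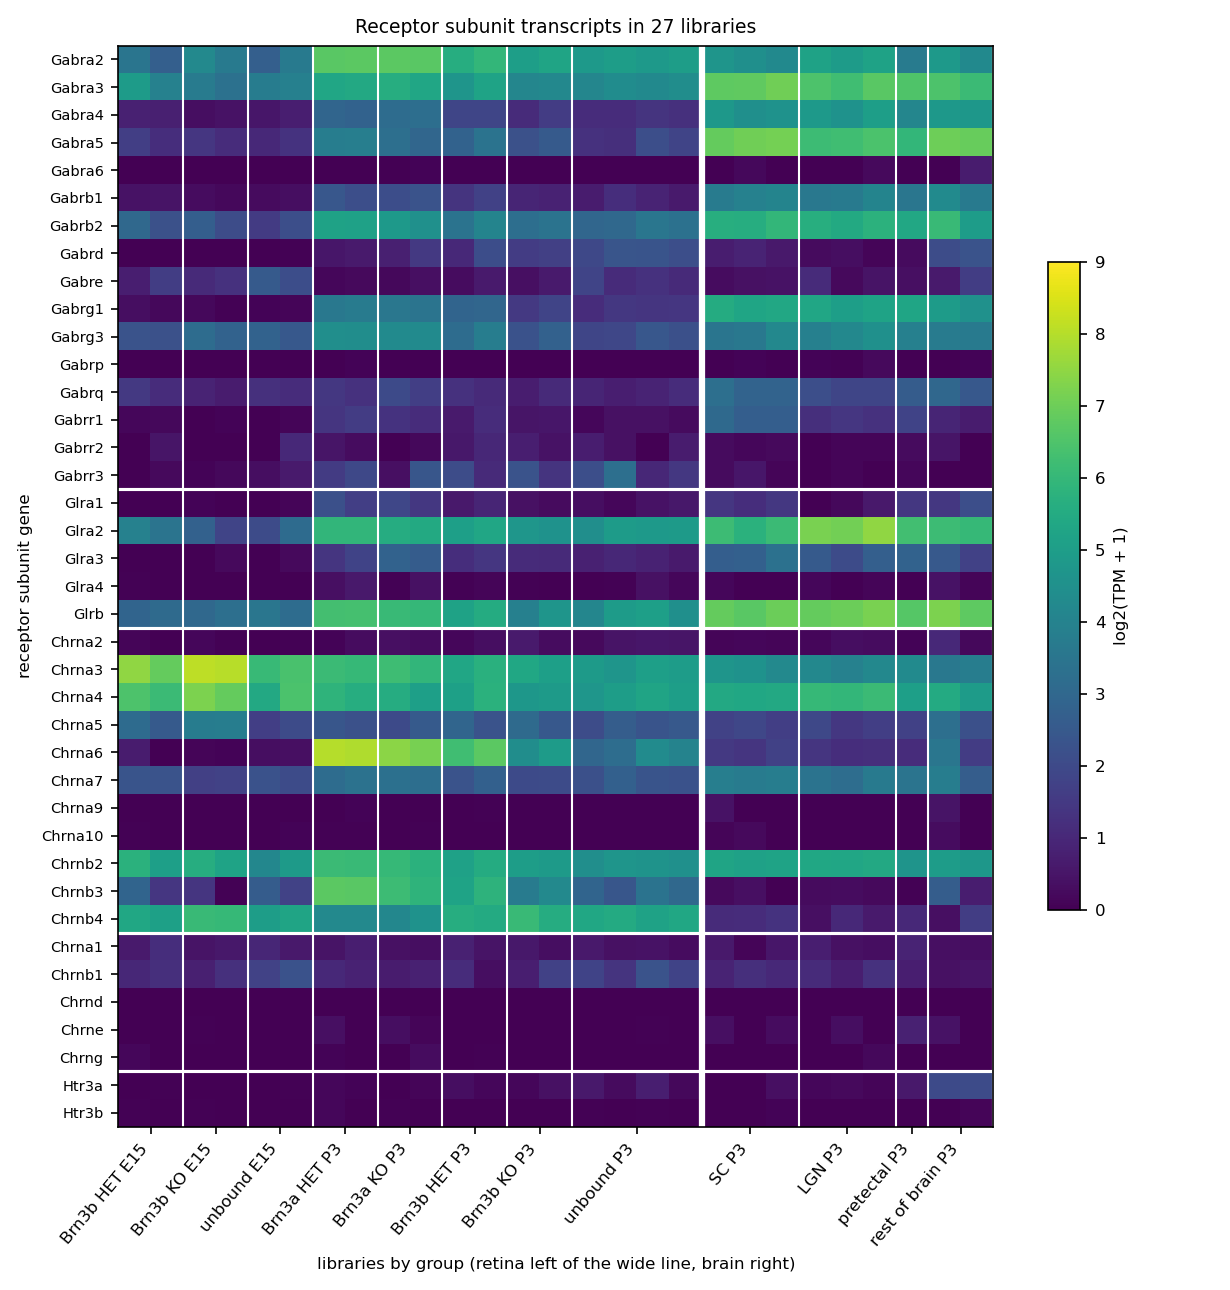
Levels of 39 of the 42 receptor subunit genes as log2(TPM + 1) in 27 libraries, rows grouped as GABA, glycine, neuronal nicotinic, muscle nicotinic and serotonin receptors and columns by group. Chrna6 and Chrnb3 are brightest in the AP-positive P3 columns, where Chrna6 reached a mean of 248.8 TPM in Brn3a HET; retina and brain were sequenced differently and were not tested against each other.

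Summed over the 19 GABA receptor genes, the level was 533 ± 4.32 TPM (SD, n = 2) in Brn3a HET, 469 ± 20.4 in Brn3a KO, 311 ± 74.7 in Brn3b HET and 205 ± 12.3 in Brn3b KO at P3, against 168 ± 19.3 (n = 4) in the unbound cells. The 16 nicotinic genes ran in the same order at P3, from 572 ± 20.4 to 203 ± 9.27 TPM, with 155 ± 13.8 in the unbound cells. At E15 the order of the Brn3b groups was turned, with 324 ± 81.7 TPM of nicotinic transcripts in HET and 527 ± 44.6 in KO. The 5 glycine receptor genes stood at 144 ± 0.673, 117 ± 6.52, 78.9 ± 11.7 and 45.1 ± 5.52 TPM in the 4 AP-positive P3 groups, in the same order, but the unbound cells, at 53.2 ± 11.1 TPM, lay above Brn3b KO. These sums carry no test. At P3 the GABA and nicotinic sums ran in the order of the ganglion cell marker sums given above, and the glycine sums did not.

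Several classes of subunit were held mostly by 1 or 2 genes. Glra2, the alpha subunit typical of immature neurons, made up 85 to 100% of the glycine alpha transcripts. The GABA alpha genes changed places with age: in Brn3b HET Gabra3 held 66.5 ± 2.93% of the alpha transcripts at E15 and 31.0 ± 2.09% at P3, while Gabra2 went from 24.3 ± 0.88% to 55.5 ± 1.47% (SD, n = 2 each). In Brn3b KO at E15 Gabra2 already held 53.3 ± 2.28%. The unbound cells showed the change of places too. At E15 Gabra3 was at 12.8 and 14.0 TPM there and Gabra2 at 5.66 and 11.7 TPM. At P3 they were at 16.4 to 20.1 and 28.0 to 31.1 TPM. The α6 gene Chrna6 took 65.4 ± 1.08% of the nicotinic alpha transcripts in Brn3a HET, 56.6 ± 0.345% in Brn3a KO, 47.4 ± 0.433% in Brn3b HET and 25.3 ± 6.39% in Brn3b KO at P3, 14.6 ± 4.85% in the unbound P3 cells, and a mean of at most 0.194% in the E15 groups. Brain areas had another make-up: Gabra3 and Gabra5 shared most of the GABA alpha transcripts, Chrna4 held 50 to 68% of the nicotinic alpha transcripts, and Chrnb2 held 87 to 98% of the beta transcripts.

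**Figure D2:**
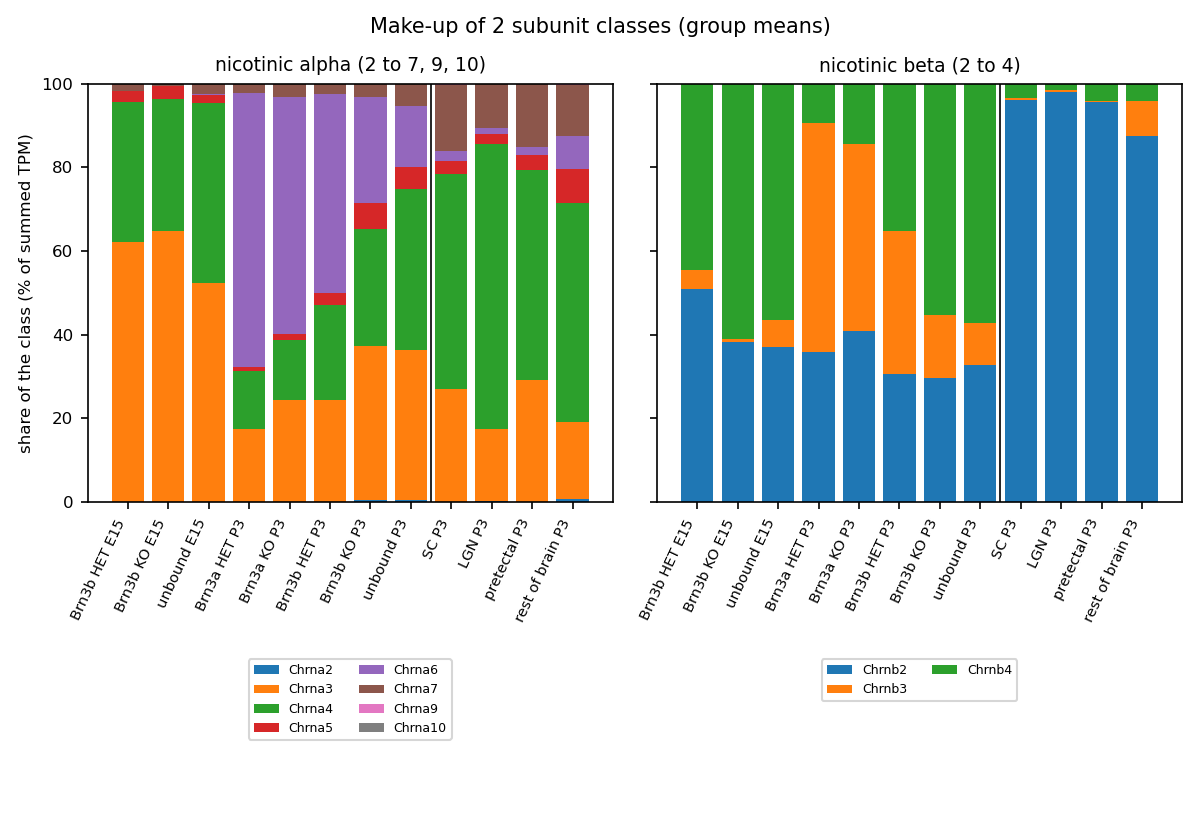
Share of each subunit in the summed TPM of its class (y axis, %), as group means, for nicotinic alpha and nicotinic beta genes; the vertical line separates retina from brain. Chrna6 is the largest nicotinic alpha share in Brn3a HET (65.4%) and is scarcely seen at E15, and Chrnb2 holds most of the beta share in brain.

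Between E15 and P3 the nicotinic alpha genes of the AP-positive cells moved in opposite directions. In Brn3b HET, Chrna6 was at 1.01 and 0.0353 CPM at E15 and at 111 and 148 CPM at P3, and in Brn3b KO at 0.159 and 0.0919 CPM and then 28.5 and 42.2 CPM. Chrnb3, whose product joins α6 in receptors of ganglion cells, was at 16.8 and 4.26 CPM in HET at E15 and at 85.8 and 122 CPM at P3, and in KO at 4.03 and 0.0702 and then 27.4 and 39.5 CPM. Both neighbours on chromosome 8 were higher in every Brn3b P3 library on the beads than in any AP-positive E15 library. Chrna6 rose by 7.95 ± 0.62 (log2) in HET (edgeR adjusted p = 8.17e-05) and 8.12 ± 0.72 in KO (0.000125), and Chrnb3 by 3.31 ± 0.88 (0.0202) and 4.06 ± 0.96 (0.0128). At E15 the Chrna6 values rest on 1.01 to 29.1 estimated counts per library, so the size of its fold is loosely fixed. The rise of Chrnb3 in HET missed the threshold without Brn3b HET P3 replicate 2 (3.03, adjusted p = 0.0748) or without Brn3b HET E15 replicate 2 (2.64, adjusted p = 0.101).

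Chrna3 and Chrna4, the most abundant members in Brn3b cells at E15, went the other way. Chrna3 was at 314 and 203 CPM in HET and 471 and 446 CPM in KO at E15, and at 63.4 and 79.0 CPM in HET and 59.8 and 50.2 CPM in KO at P3. It fell by 1.85 ± 0.22 on the log2 scale in HET (adjusted p = 0.000448) and by 3.04 ± 0.23 in KO (6.22e-05). Chrna4 fell from 222 and 170.2 CPM to 78.6 and 117 CPM in HET, by 1.00 ± 0.26 (adjusted p = 0.0197), and from 363 and 282 CPM to 54.0 and 64.2 CPM in KO, by 2.43 ± 0.28 (0.000363). The HET fall of Chrna4 missed the threshold without Brn3b HET P3 replicate 1 (-0.74, adjusted p = 0.127) or Brn3b HET E15 replicate 1 (-0.80, 0.091). The neighbours of Chrna3 did not pass in HET: Chrnb4 was at 77.2 and 64.95 CPM at E15 and at 85.3 and 74.5 CPM at P3, and Chrna5 at 12.02 and 7.43 and then 9.43 and 5.27 CPM. Chrna5 fell in KO, from 18.8 and 19.6 to 10.2 and 6.16 CPM (-1.21 ± 0.38, adjusted p = 0.0401), a call lost without Brn3b KO P3 replicate 2 (-0.90, 0.21) or either Brn3b KO E15 library (-1.25, 0.116, and -1.19, 0.127).

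**Figure D3:**
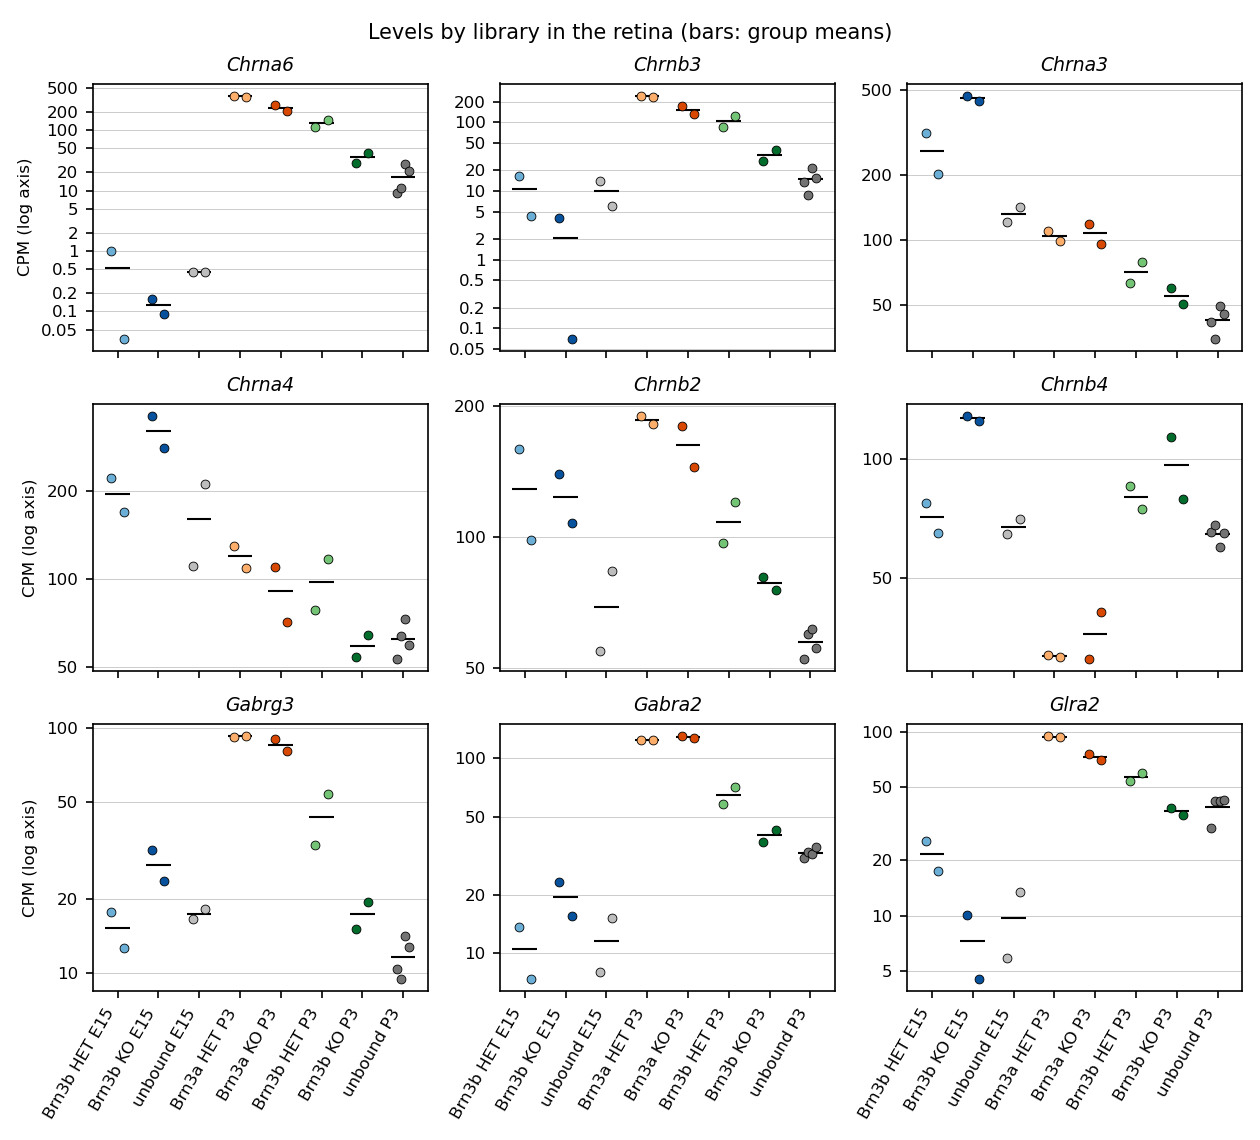
CPM by library (points, log axis) with group means (bars) for 9 members in the 8 retinal groups, E15 groups at the left. Chrna6 and Chrnb3 are low at E15 and high in the AP-positive P3 libraries, Chrna3 and Chrna4 are highest at E15, and Chrnb4 is lowest in the Brn3a groups (31.2 to 41.1 CPM).

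GABA and glycine receptor genes rose over the same interval. In Brn3b HET 18 of 32 tested members rose and 2 fell, where 28.8% of 16673 genes passed (16.6% higher, 12.3% lower). The members' median was 1.46, also with genes at 0 put at their bound, against 0.009 over all genes. In Brn3b KO 14 rose and 3 fell, where 25.4% of all genes passed (14.4% higher, 11.1% lower), with a median of 1.24 against 0.031. The filter on low counts left out 10 members, so these counts are of the members with enough reads. Gabra2 went from 13.7 and 7.37 CPM to 58.6 and 71.3 CPM in HET (2.63 ± 0.28, adjusted p = 0.000299) and from 23.3 and 15.5 to 37.5 and 43.0 CPM in KO (1.07 ± 0.27, 0.0162); the KO call was lost without Brn3b KO P3 replicate 2 (0.96, 0.0785) or Brn3b KO E15 replicate 2 (0.80, 0.122). Glrb, the partner that anchors glycine receptors at the synapse, went from 9.11 and 11.9 to 52.4 and 62.1 CPM in HET (2.45 ± 0.27, 0.000308) and from 8.31 and 9.72 to 19.0 and 35.0 CPM in KO (1.60 ± 0.26, 0.00201). All 4 tested glycine receptor genes rose in HET, as did 12 of 17 GABA receptor genes. Among them Glra1, Glra3 and Gabrd had counts of 0, or that rounded to 0, in HET at E15. They reached the test through their P3 counts and could only rise, so these tallies are no separate support for a rise. In KO at E15 Gabrd (1.05 and 0.569 estimated counts) and Gabrr1 (0 and 2.07) were near 0 too, and the same holds there. Glra4 was not tested. Of the 20 calls in HET 13 held in every fit that left out 1 library; among the 7 that did not were Glra2 (1.15, adjusted p = 0.0583 without Brn3b HET E15 replicate 2), Gabrb2, Gabrr1 and Gabrr3. In KO 10 of 17 calls held in every such fit.

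Gabrg1, a gamma subunit, was scarcely measured at E15: it was at 0.711 and 0.409 CPM in HET at E15 and at 15.8 and 16.0 CPM at P3 (4.83 ± 0.49, adjusted p = 0.000225). Gabra5 went from 3.25 and 1.86 to 8.37 and 12.5 CPM (2.04 ± 0.34, 0.00238). Gabrg3 went from 17.8 and 12.7 to 33.3 and 53.8 CPM in HET (1.52 ± 0.26, 0.0026), but in KO it was at 31.7 and 23.8 CPM at E15 and at 15.2 and 19.6 CPM at P3, which did not pass. The 2 libraries of each age did not overlap for these 3 genes in HET, which with so few libraries adds little. The delta subunit gene Gabrd had no count in either E15 HET library and was at 1.16 and 3.32 CPM at P3, at least 41.7-fold higher against a floor of 3 counts over the E15 group. Glra1, the adult glycine receptor alpha, was likewise at 0 and then at 0.669 and 0.930 CPM, at least 15.2-fold higher, and Glra3, whose counts rounded to 0, was at least 26.6-fold higher. Over the same ages photoreceptor markers went from 159 to 222 CPM summed to 1548 to 2046 CPM in HET, and microglia markers from 542 to 725 to 1639 to 1938 CPM; their part in these changes was not tested.

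The unbound cells changed with age too. There 13 of 33 tested members rose and 3 fell, where 33.1% of 16954 genes passed (15.6% higher, 17.5% lower). Among those that rose, Chrna2, Gabrd and Htr3a had at most 1.98 estimated counts in an unbound E15 library, and Glra3 had 0 and 6.38. They reached the test through P3 counts and could scarcely fall, so this tally is no separate support for a rise. The P3 pool holds 2 libraries of Brn3a mice and 2 of Brn3b mice, and the E15 pool only Brn3b mice, so age is partly mixed with locus. Without the E15 Brn3b HET unbound library 7 rose and 2 fell, where 15.7% of genes passed. The call held in every fit that left out 1 library for 8 of the 16, and did not for Chrna2, Gabra4, Gabrb1, Gabrb2, Gabrq, Glra3, Glrb and Htr3a. Chrna3 fell from 122 and 142 CPM to 34.7 to 49.5 CPM (-1.63 ± 0.17, adjusted p = 2.38e-05), and Chrna6 rose from 0.446 and 0.455 CPM to 9.08 to 27.1 CPM (5.23 ± 0.67, 8.82e-05). Chrna4 (-1.37 ± 0.24), Glra2 (2.02 ± 0.34), Gabra2 (from 11.6 to 32.9 CPM on average) and Gabrb2 (1.37 ± 0.33) also passed. Chrnb3 did not: it was at 14.0 and 5.98 CPM at E15 and at 8.71 to 21.6 CPM at P3. The unbound P3 pool also kept ganglion cell markers (202 to 535 CPM), and Chrna6 in it was lower in the 2 libraries of Brn3a mice (9.08 and 10.9 CPM) than in the 2 of Brn3b mice (27.1 and 21.0 CPM), which is 1 library per genotype and carries no test.

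Whether Brn3b HET cells changed more with age than unbound cells was tested as a difference of differences. It used the same unbound pools, with Brn3a mice at P3 only. Among the members 1 passed, Gabrg3 (2.09 ± 0.34, adjusted p = 0.0068), where 2.20% of all genes did (1.39% higher, 0.814% lower). Gabrg3 rose in Brn3b HET and was at 16.5 and 18.2 CPM in the unbound cells at E15 and 9.43 to 14.1 CPM at P3. For Chrna6 the difference was 2.72 ± 1.02 (adjusted p = 0.181), for Chrnb3 2.74 ± 1.05 (0.186), for Glrb 1.45 ± 0.40 (0.0775) and for Gabra2 1.13 ± 0.38 (0.139), none of which passed.

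At P3 most tested receptor genes were higher in AP-positive than in unbound cells. The 4 AP-positive groups (8 libraries) were averaged and set against 4 unbound libraries. Titles of unbound libraries carry replicate numbers that AP-positive libraries also carry, and the main fit did not pair them. Of 33 tested members 23 were higher and 3 lower, where 55.0% of 16954 genes passed (27.3% higher and 27.7% lower). The members' median was 0.93 against -0.027 over all genes. By family, 13 GABA genes were higher and 2 lower of 17 tested, all 4 tested glycine genes were higher, and 6 of 9 tested neuronal nicotinic genes were higher. The filter on low counts left out 9 members: Chrna9, Chrna10, Chrnd, Chrne, Chrng, Gabra6, Gabrp, Glra4 and Htr3b. Ganglion cell and microglia markers, given above, were also higher in the AP-positive libraries, while amacrine markers summed to 474 to 1353 CPM there and to 1329 to 1571 CPM in the unbound ones. Astrocyte markers (4 genes) summed to 56.9 to 232 CPM in the AP-positive and to at most 14.1 CPM in the unbound P3 libraries, and progenitor and Mueller glia markers (6 genes) to 99.5 to 1256 against 1511 to 2280 CPM; the part of these cell types in the receptor differences was not tested. The call held when each library was left out in turn for 21 of the 26, and was lost in at least 1 such fit for Chrna4, Chrna7, Gabrq, Glra2 and Glra3.

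Among the members that passed, Chrna6 and Chrnb3 had the largest fold changes. Chrna6 ranged from 28.5 to 373 CPM in the 8 AP-positive libraries, with a median of 179, and from 9.08 to 27.1 CPM in the 4 unbound ones (3.05 ± 0.36, adjusted p = 1.03e-05). Chrnb3 ranged from 27.4 to 244 CPM, with a median of 128, against 8.71 to 21.6 CPM (2.84 ± 0.55, 0.000598). In neither case did the groups overlap, although for Chrna6 the lowest AP-positive library, a Brn3b KO one, lay close to the highest unbound one. Chrnb2, the common partner of neuronal alpha subunits, ranged from 75.7 to 189 CPM with a median of 132, against 52.4 to 61.4 CPM (1.14 ± 0.15, 2.19e-05). Chrna3 ranged from 50.2 to 119 CPM with a median of 87.5, against 34.7 to 49.5 CPM (0.94 ± 0.13, 4.64e-05). Both sets lay apart. Chrnb4 did not pass (-0.25 ± 0.10). It was at 17.2 to 22.9 TPM in the Brn3a and 43.9 to 67.3 TPM in the Brn3b AP-positive P3 libraries. The unbound ones were at 35.8 to 43.8 TPM, so this average joins groups on both sides of the unbound cells.

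The gamma subunit genes Gabrg3 and Gabrg1 stood apart too. Gabrg3 ranged from 15.2 to 92.8 CPM (median 67.4) in AP-positive and from 9.43 to 14.1 CPM in unbound libraries (2.08 ± 0.17, adjusted p = 4.58e-07), and Gabrg1 from 4.12 to 29.4 CPM (median 20.4) against 2.61 to 3.71 CPM (2.18 ± 0.26, 1.1e-05). In neither did the groups overlap, and the Brn3b KO libraries were the lowest of the AP-positive ones. Among alpha subunits Gabra2 lay apart as well, from 37.5 to 129.9 CPM (median 97.8) against 30.9 to 34.9 CPM (1.29 ± 0.18, 4.61e-05). So did Gabra5, from 4.79 to 17.7 CPM (median 10.7) against 1.58 to 4.36 CPM (1.90 ± 0.29, 9.36e-05). Gabra4 was higher (1.65 ± 0.19, 9.79e-06) with overlap, from 2.29 to 17.9 CPM against 2.24 to 3.04 CPM. The members that were lower were Gabre, at 0.258 to 1.23 CPM against 2.15 to 4.64 CPM (-2.33 ± 0.40, 0.000213), Gabrd (-1.26 ± 0.36) and the muscle-type beta gene Chrnb1 (-1.30 ± 0.38). Vascular markers (4 genes) summed to 65.5 to 505 CPM in the AP-positive P3 libraries and 564 to 635 CPM in the unbound ones, and their part in the lower Gabre was not tested.

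**Figure D4:**
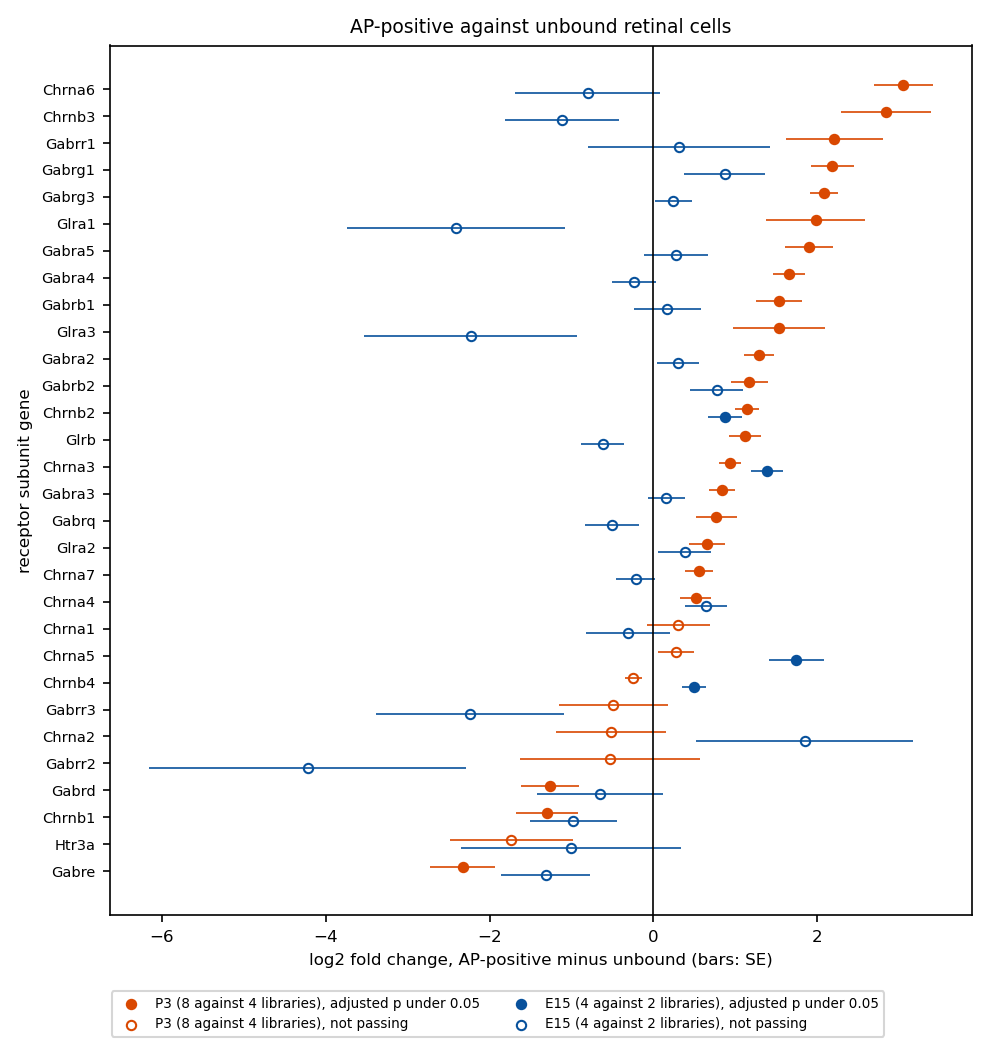
Log2 fold change of AP-positive against unbound cells with its standard error (x axis) for 30 of the 33 tested members at P3 and E15; filled points passed an adjusted p of 0.05. At P3 the filled points lie mostly to the right, led by Chrna6 (3.05) and Chrnb3 (2.84); at E15 Chrna3, Chrna5, Chrnb2 and Chrnb4 are the filled points.

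At E15 few members differed between AP-positive and unbound cells. Of 33 tested, 4 were higher (12.1%) and 1 was lower, where 26.3% of genes passed (13.4% higher), so the share of members that were higher was near that of all genes. Chrna3 was at 203 to 471 CPM in 4 AP-positive libraries and at 122 and 142 CPM in 2 unbound ones (1.38 ± 0.19, adjusted p = 0.000296). Chrna5 was at 7.43 to 19.6 CPM against 3.54 and 4.62 CPM (1.74 ± 0.34, 0.00357), Chrnb2 at 98.1 to 159 CPM against 54.6 and 83.5 CPM (0.87 ± 0.21, 0.00996), and Chrnb4 at 64.95 to 128 CPM against 64.4 and 70.2 CPM with overlap (0.49 ± 0.15, 0.0271). Only the Chrna3 call held in every fit that left out 1 library; the other 4 were lost without the Brn3b HET unbound library. Leaving out 1 library here leaves 1 library in a group, and both the members that passed and the share of all genes that passed moved between such fits. With DESeq2 6 members were higher, where it called 26.1% of all genes. The test of the difference between the ages is the one given above for Brn3b HET, which only Gabrg3 passed.

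The 2 heterozygous populations at P3 differed in 5 members, where 3.85% of all genes passed (2.03% higher, 1.82% lower). Gabrb2 was at 71.3 and 67.4 CPM in Brn3a HET and at 19.8 and 29.2 CPM in Brn3b HET (-1.50 ± 0.33, adjusted p = 0.0434), and Gabra4 at 13.9 and 12.7 against 5.71 and 5.37 CPM (-1.26 ± 0.28, 0.044). Gabrg3 was at 92.5 and 92.8 against 33.3 and 53.8 CPM (-1.09 ± 0.26, 0.0481). Chrnb4 was the exception in direction, at 31.8 and 31.5 CPM in Brn3a HET and 85.3 and 74.5 CPM in Brn3b HET (1.34 ± 0.19, 0.0121); the unbound libraries were at 59.9 to 68.2 CPM. Chrna6, at 373 and 355 against 111 and 148 CPM, did not pass (-1.48 ± 0.42, 0.0683). The members' median was -0.74 against 0.005 over all genes. The ganglion cell marker sum differed in the same direction (4975 and 5221 against 2065 and 3021 CPM), amacrine markers in the other (515 and 539 against 773 and 787 CPM), and photoreceptor markers too (565 and 566 against 1548 and 2046 CPM); their part in these differences was not tested. None of the 5 calls held in every fit that left out 1 library. Each of these fits leaves 1 library in a group, and far fewer of all genes passed in each, so the losses are not particular to the members. Chrnb4 passed in 1 of the 4 such fits (without Brn3b HET replicate 2) and the other members in none: Chrnb4 stood at 1.22 to 1.32 in the fits where it was lost (adjusted p from 0.11 to 0.128), Gabrb2 at -1.27 to -1.83 (0.0769 to 0.292), Gabra4 at -1.21 to -1.36 (0.103 to 0.258) and Gabrg3 at -0.80 to -1.50 (0.0607 to 0.295).

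Loss of Brn3a left the receptor genes without a call at P3. No member passed with edgeR, where 0.0180% of all genes did (0.0120% higher, 0.00600% lower), and 1 of 32 (3.12%) had an unadjusted p under 0.05, as did 2.59% of all genes; DESeq2 called 1 lower, and 0.272% of all genes. Chrna6 was at 373 and 355 CPM in HET and at 258 and 209.6 CPM in KO, and Gabra2 at 124 and 125 CPM against 129.9 and 128 CPM. Glra3 was at 1.61 and 2.37 against 6.01 and 5.10 CPM, which did not pass.

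Loss of Brn3b at P3 went with lower levels of 2 members, where 3.41% of all genes passed (0.264% higher, 3.15% lower). Gabrg3 was at 33.3 and 53.8 CPM in HET and at 15.2 and 19.6 CPM in KO (-1.32 ± 0.26, adjusted p = 0.0315), and Chrna6 at 111 and 148 CPM against 28.5 and 42.2 CPM (-1.87 ± 0.43, 0.0482). Both stood near the threshold. Leaving out 1 library leaves 1 in a group here. Without Brn3b KO replicate 1, Brn3b KO replicate 2 or Brn3b HET replicate 2, nearly all genes that had passed lost their calls. The Gabrg3 call was lost without Brn3b KO replicate 1 (-1.15, 0.17), Brn3b KO replicate 2 (-1.50, 0.117) or Brn3b HET replicate 2 (-0.93, 0.273). The Chrna6 call was lost without any 1 of the 4 libraries (-1.62 to -2.17, adjusted p from 0.0668 to 0.335), and also under 5 of 7 other settings: DESeq2, RLE scaling, the replicate block, a fit of all 18 retinal libraries and a fit of only the compared groups (adjusted p from 0.0545 to 0.189). That last fit also lost Gabrg3 (0.086), and 0 of all 15661 genes passed in it. Glrb (-1.08 ± 0.25, 0.0508) and Gabrg1 (-1.65 ± 0.40, 0.0549) just missed the threshold in the fit of all AP-positive libraries. With edgeR 12 of 32 members (37.5%) had an unadjusted p under 0.05, as did 19.1% of all genes. The median of the 32 tested members was -0.63 against 0.01 over all genes. Chrnb4 was at 85.3 and 74.5 CPM in HET and at 114 and 79.1 CPM in KO. Ganglion cell markers went from 2065 and 3021 to 548 and 771 CPM in the same libraries, amacrine markers from 773 and 787 to 1210 and 1353 CPM, and microglia markers from 1639 and 1938 to 749 and 1007 CPM; their part in the receptor differences was not tested.

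At E15, too, the Brn3b KO was set against HET. Of the members 1 passed, Glra2, at 25.7 and 17.6 CPM in HET and 10.1 and 4.52 CPM in KO (-1.56 ± 0.32, adjusted p = 0.039), where 1.85% of genes passed (0.666% higher, 1.18% lower). The call was lost without Brn3b HET E15 replicate 1 (-1.23, 0.182) or Brn3b KO E15 replicate 2 (-1.08, 0.129). Several nicotinic genes had higher values in KO without passing: Chrnb4 at 77.2 and 64.95 against 128 and 124 CPM (0.83 ± 0.19, 0.0669), Chrna3 at 314 and 203 against 471 and 446 CPM (0.82 ± 0.21, 0.109), and Chrna5 at 12.02 and 7.43 against 18.8 and 19.6 CPM (0.98 ± 0.37, 0.314). With edgeR 15 of 32 members (46.9%) had an unadjusted p under 0.05, as did 11.7% of all genes. DESeq2 called 8 members, 4 in each direction, where it called 3.86% of all genes. The ganglion cell marker sum was lower in KO here too (884 and 1229 against 1843 and 3337 CPM) and the amacrine sum higher (1303 and 1486 against 821 and 860.0 CPM), and their part was not tested. For a different response to Brn3b loss at P3 and E15 no member passed with edgeR, where 0.192% of genes did (0.00600% higher and 0.186% lower). An unadjusted p under 0.05 was reached by 7 of 32 members (21.9%) and 11.8% of all genes. DESeq2 called 4 members and 1.66% of all genes. The closest was Gabrg3 (-2.18 ± 0.37, adjusted p = 0.067), which was lower in KO at P3 and higher in KO at E15. Between Brn3b and Brn3a loss at P3 none passed with edgeR, where 0.0120% of genes did (0.00600% higher and 0.00600% lower). An unadjusted p under 0.05 was reached by 6 members (18.8%) and 8.82% of all genes. DESeq2 called 1 member and 1.59% of all genes. In simulated counts the simpler comparison of Brn3b KO with HET at P3 recovered 26.9% of 2-fold changes, so a missing call does not show equal responses. These contrasts share libraries, so their values are not independent.

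Genes that work with the receptors were read from 4 lists, against the same shares of all genes as above. Of 16 inhibitory synapse and chloride genes 13 were higher and 1 lower in AP-positive than in unbound cells at P3. Of all genes 27.3% were higher and 27.7% lower there. Gphn, the scaffold gephyrin, was at a mean of 93.7 against 51.1 CPM (0.83 ± 0.08, adjusted p = 1.45e-06), and Gabbr2, a subunit of the metabotropic GABA-B receptor, at 257 against 51.0 CPM (2.14 ± 0.24, 5.73e-06). Dbi, which encodes a protein that binds GABA-A receptors, was the one that was lower (-1.61 ± 0.19). The chloride exporter Slc12a5, known as KCC2, rose between E15 and P3 in Brn3b HET from 15.5 to 118 CPM (2.93 ± 0.33, edgeR adjusted p = 0.00037). In unbound cells it rose from 15.5 to 73.2 CPM (2.24 ± 0.38, 0.000634). Of the 16 genes 4 rose and none fell in Brn3b HET, where 28.8% of all genes passed (16.6% higher, 12.3% lower). In unbound cells 4 rose and 1 fell, where 33.1% passed (15.6% higher, 17.5% lower). The number of calls was near the share of all genes that passed in both. None of the 4 lists had a call for Brn3a loss (edgeR), and at an unadjusted p under 0.05 they had 0, 1, 2 and 1 genes. The 9 genes of GABA and glycine synthesis and transport ran the other way at P3, with 0 higher and 4 lower in AP-positive cells: the GABA-making enzyme genes Gad2 (-0.94 ± 0.12) and Gad1 (28.8 against 100.9 CPM on average), the vesicular transporter gene Slc32a1 (-1.53 ± 0.28) and the glycine transporter gene Slc6a5 (-1.22 ± 0.33). Gad1 and Slc32a1 also stand in the amacrine marker list. With age in Brn3b HET 6 of these 9 rose and 1 fell (Gad2, -1.18). In Brn3b KO at E15 2 of the 9 were higher than in HET, and Slc32a1 was at a mean of 44.4 CPM against 1.47 CPM in HET (4.92 ± 0.35, 0.000419).

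Of 10 tested genes for nicotinic receptor assembly and modulation 6 were higher in AP-positive cells at P3 and none lower. Lynx1, which encodes a small protein that binds nicotinic receptors and dampens them, was at a mean of 35.4 against 4.25 CPM (2.58 ± 0.23, adjusted p = 7.96e-07). It rose with age in Brn3b HET from 0.979 to 22.2 CPM (4.51 ± 0.22, 8.56e-06), was lower in Brn3b HET than in Brn3a HET (22.2 against 69.1 CPM, -1.63 ± 0.18, 0.00351) and was lower in Brn3b KO than in HET at P3 (6.12 against 22.2 CPM, -1.85 ± 0.18, 0.00896). Among 10 genes of acetylcholine handling and muscarinic receptors 3 were higher and 2 lower in AP-positive cells at P3. Of all genes 27.3% were higher and 27.7% lower, so this list was near the shares of all genes. Within it Ache, the enzyme that breaks acetylcholine down, was at 74.6 against 18.4 CPM (1.72 ± 0.22, edgeR adjusted p = 2.15e-05). The muscarinic receptor gene Chrm3 fell with age in Brn3b HET from 32.2 to 5.28 CPM (-2.60 ± 0.29, 0.000328).

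In the brain the retinal targets differed in 7 members, where 10.2% of 15288 genes passed between SC and LGN (4.41% higher in SC, 5.78% lower). Gabrr1, a rho subunit of the slow GABA receptors first known from retina, was at 7.75, 5.87 and 5.97 CPM in SC and at 1.39, 1.88 and 1.59 CPM in LGN (2.00 ± 0.29, adjusted p = 0.00227). Gabra5 was at 140.0, 164 and 177 CPM against 87.7, 95.7 and 109 CPM (0.71 ± 0.12, 0.00403), and Gabrq, the theta subunit, at 16.8, 13.1 and 14.3 against 7.95, 6.34 and 6.32 CPM (1.10 ± 0.19, 0.00633). These were higher in SC without overlap, as was the less abundant Glra1. LGN was higher in Glra2, at 216, 207 and 274 CPM against 101, 76.9 and 105 CPM (-1.30 ± 0.15, 0.000585), in Chrna4, at 135, 133 and 148 against 86.8, 85.0 and 94.6 CPM (-0.64 ± 0.12, 0.00916), and in Gabra2, at 39.5, 34.4 and 40.2 against 27.4, 23.9 and 21.2 CPM (-0.65 ± 0.16, 0.0328). Chrna4 and its partner Chrnb2 form the common high-affinity nicotinic receptor of thalamus. The calls for Gabra5, Gabrq, Gabrr1 and Glra2 held in every fit that left out 1 library; those for Chrna4, Gabra2 and Glra1 did not. Medians over 31 tested members (0.14) and all genes (0.018) were both near 0.

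**Figure D5:**
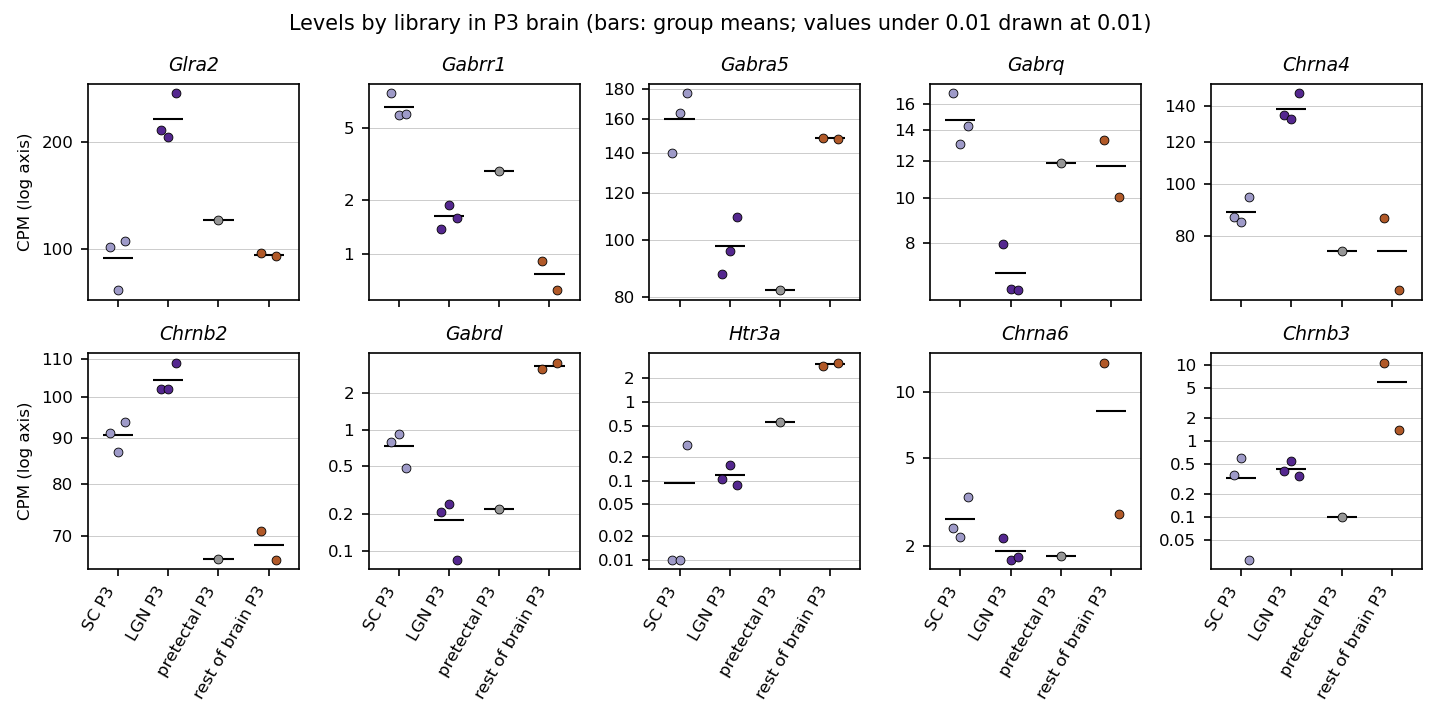
CPM by library (points, log axis) with group means (bars) for 10 members in P3 brain: 3 SC, 3 LGN, 1 pretectal and 2 remaining-brain libraries. Glra2 and Chrna4 are highest in LGN, Gabrr1 in SC, and the 2 remaining-brain libraries lie far apart for Chrna6 (13.5 and 2.79 CPM) and Chrnb3 (10.6 and 1.39 CPM).

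Against the remaining brain, SC had 4 members higher and 3 lower (6.94% of genes passed, 3.19% higher and 3.75% lower) and LGN 4 higher and 9 lower (10.9%, 5.76% higher and 5.17% lower). Glra2 was at 97.7 and 95.7 CPM in the remaining brain, below every LGN library (1.26 ± 0.17, adjusted p = 0.00144). Chrnb2 was at 71.0 and 65.9 CPM there, below LGN (102, 102 and 109 CPM; 0.61 ± 0.10, 0.00408) and below SC (91.1, 86.8 and 93.9 CPM; 0.40 ± 0.10, 0.0365). Gabrg1, at 62.4 and 50.8 CPM, was also lower than in SC (99.2, 85.2 and 94.2 CPM; 0.71 ± 0.13, 0.0124) and than in LGN (0.53 ± 0.13, 0.0324). Chrna3 was higher in SC, at 35.4, 33.8 and 26.9 against 15.2 and 19.1 CPM (0.90 ± 0.18, 0.0189). These comparisons share the 2 remaining-brain libraries, and against the remaining brain only the calls for Gabrr1 and Htr3a (SC) and for Chrna4, Chrnb2, Gabrd, Glra2 and Htr3a (LGN) held in every fit that left out 1 library. Chrna4, at 86.3 and 63.2 CPM in the remaining brain, was lower there than in LGN (0.89 ± 0.14, 0.00369).

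Several members were higher in the remaining brain. Htr3a, which marks a class of cortical interneurons, was at 2.83 and 3.13 CPM there and at most 0.280 CPM in any SC or LGN library (SC, -4.93 ± 0.87, adjusted p = 0.00983; LGN, -4.62 ± 0.84, 0.00775). Gabra5 was higher there than in LGN (149 and 148 CPM; -0.61 ± 0.13, 0.0154). Gabrd was at 3.15 and 3.57 CPM there, at 0.0843 to 0.245 CPM in LGN (-4.23 ± 0.58, 0.00177) and at 0.485 to 0.926 CPM in SC (-2.15 ± 0.50, 0.0329). Chrna6, Chrnb3 and Chrna5 also passed against LGN, and Chrnb3 against SC (-4.28 ± 0.98, 0.031), but these rest on 1 library: remaining brain replicate 1 had 13.5, 10.6 and 10.4 CPM and replicate 2 had 2.79, 1.39 and 4.60 CPM. Without replicate 1 the differences were -0.51 (adjusted p = 0.506), -1.71 (0.337) and -0.64 (0.333). Cortex markers (5 genes) summed to 427 and 454 CPM in the remaining brain and to at most 9.32 CPM in SC and LGN; thalamus markers to 1211 to 1308 CPM in LGN and 336 to 497 CPM in SC; and tectum markers to 413 to 444 CPM in SC and 39.6 to 57.9 CPM in LGN. A list of 5 cerebellar granule cell markers summed to 733 to 1167 CPM in LGN and 155 to 269 CPM in SC. The 2 remaining-brain libraries lay far apart for it, at 175 and 762 CPM. The same list summed to 519 to 1817 CPM in the AP-positive P3 retinal libraries, so it is not particular to the cerebellum. The part of the cells marked by these lists was not tested. The single pretectal library is given by value only: it had 121 CPM of Glra2, 74.9 of Chrna4, 82.3 of Gabra5 and 2.88 of Gabrr1.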

How the data were processed

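The authors deposited 1 table of estimated counts for 88198 transcripts in 27 libraries. Per the submitters' processing notes, Trimmomatic 0.32, Bowtie2 2.2.1, eXpress 1.3.1 and GRCm38.p3 were used; whether strand was used in counting is not given in the sources used here. Transcripts were summed into 30735 genes, after 27 symbols listed as dates were restored, and the sums were rounded to whole numbers. Depth was 28905675 to 37394655 estimated counts in retina and 10122962 to 13769685 in brain, so brain values of low genes are less precise.

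Libraries were grouped by title. edgeR 4.0.16 (R 4.3.3) fitted quasi-likelihood models with TMM scaling and its filter on low counts (minimum count 10): 18 retinal libraries for comparisons with unbound cells, the 12 AP-positive libraries for genotype and age, and the 9 brain libraries. P-values were adjusted by Benjamini-Hochberg over all genes tested (16954, 16673 and 15288), with a threshold of 0.05. TPM was computed from transcript lengths, leaving out transcripts under 200 bases. Retina and brain were sequenced on different instruments and were not compared. The fits were tested on simulated counts.

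Values in every library are given for members that passed with a mean of at least 5 CPM in the higher group, at most 10 per comparison by smallest adjusted p, and for related lists at most 4 genes per comparison; other members named with values were chosen after these were seen. The members and lists were chosen with earlier results of these data known. Alternatives were RLE scaling, no filter, protein-coding transcripts only, a replicate block, DESeq2 1.42.0, other sets of libraries and leaving out each library. Some members are counted but not reported by name or drawn here.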

Additional observations from a re-analysis of the deposited data

Results flagged for a closer look

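Among the 4 unbound P3 libraries the one from Brn3a HET stood below the other three for Gabrg1, at 2.61 CPM against 3.66 to 3.71 CPM, and for Glra2, at 29.99 CPM against 41.9 to 42.4 CPM. By this gap test, which uses Dixon's critical value, chance marks about 1 in 20 groups. The change of Gabrg3 with age differed between AP-positive Brn3b HET cells and unbound cells by 2.09 (log2, edgeR adjusted p = 0.0068), with the AP-positive cells rising. The single pretectal library, which enters no comparison, held Chrna1 at 1.91 CPM, above the highest of the 8 other brain libraries (1.40 CPM).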

How the results depend on the processing

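Of 120 member calls over all comparisons, 118 were kept with DESeq2, 118 with RLE scaling, 116 with no filter, 115 with protein-coding transcripts only and 98 when only the compared groups were fitted; none changed sign. Counts of members called moved most where few members passed. For Brn3b HET against Brn3a HET the count of 5 became 10 with no filter, 13 with DESeq2 and 15 with only the compared groups. The share of all genes that passed went from 3.85% to 6.66%, 14.4% and 20.0% in the same order. For Brn3b loss at P3 the count of 2 became 1 with RLE scaling, 4 with no filter, 4 with DESeq2 and 0 with only the compared groups. Of all genes 3.41% passed at first, and then 2.82%, 4.02%, 7.4% and 0%. For Brn3b loss at E15 the count of 1 became 2 with no filter, 8 with DESeq2, 2 with all 18 retinal libraries and 0 with only the compared groups. Of all genes 1.85% passed at first, and then 2.01%, 3.86%, 1.98% and 0.145%. For the difference of Brn3b loss between ages the count of 0 became 1 with no filter, 4 with DESeq2 and 1 with all 18 retinal libraries. Of all genes 0.192% passed at first, and then 0.483%, 1.66% and 0.242%. DESeq2 gave 1 for Brn3a loss, 1 for Brn3b against Brn3a loss and 2 for the difference in age change between AP-positive and unbound cells. It called 0.272%, 1.59% and 5.79% of all genes there. The last count was also 2 with protein-coding transcripts only, where 2.02% of all genes passed. At E15 the AP-positive against unbound count of 5 became 2 with only the compared groups, where 5.57% of all genes passed against 26.3% before. The share of all genes that passed also moved when 1 library was left out, as described next for the members. The cause of these shifts was not tested.

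Leaving out 1 library at a time gave 22 to 27 calls for AP-positive against unbound cells at P3, 1 to 9 at E15, 9 to 16 for unbound cells with age, 1 to 3 for the difference in age change, 15 to 20 for Brn3b HET with age, 12 to 15 for Brn3b KO with age, 0 to 1 for Brn3b loss at P3, 0 to 3 at E15, 0 to 2 for the difference between these, 0 for Brn3a loss and for Brn3b against Brn3a loss, 0 to 1 for the heterozygous groups, 4 to 6 for SC against LGN, 3 to 6 for SC and 6 to 9 for LGN against the remaining brain.

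With the replicate number as a block 108 of the 120 calls were kept and 12 gained; the count became 3 for Brn3b HET against Brn3a HET and 12 for SC against LGN, where 14.9% of all genes then passed against 10.2%. Same-numbered deviations correlated at -0.116 to 0.171 among the AP-positive groups. Brain titles carry a tag, M1 to M3, that recurs across tissues; the labels do not say what it marks. Same-tagged deviations correlated at 0.2, 0.0707 and 0.218 between SC and LGN, at 0.114 and -0.0235 between SC and remaining brain and at 0.174 and -0.00396 between LGN and remaining brain. All 6 SC and LGN libraries correlated best with their own number, a hint from the data of a shared source, which the labels do not state. For Brn3b HET with age the correlation was -0.108, and a block with crossed numbers, chosen after seeing the data, kept 18 of 20 calls.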
